A study of Mus musculus with 20 samples.

Results

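The cytosolic ribosomal protein genes encode the proteins of the ribosomes that work in the cytosol, and 83 of them were followed here out of 48440 gene IDs in the deposited table. Members were taken by name and not by any measured value: protein-coding genes with an Rpl or Rps symbol and a number, with an optional a, x or l ending, together with Rplp0, Rplp1, Rplp2 and Rpsa. The pattern matched 89 names, of which 6 were annotated as pseudogenes and left out; names ending in -ps were left out as well. Of the members, 51 belong to the large subunit and 32 to the small subunit. Both the gonadal fat pad and liver were sampled in PKCε-deficient mice (genotype label AdEpsKO, called KO here) and in WT mice, all of strain C57BL/6. Each of the 4 groups (WT fat, KO fat, WT liver and KO liver) held 5 libraries. All groups were on high fat food for 1 week and then without food for 6 h before sampling, so that another diet or the fed state was not compared. What the letters AdEpsKO stand for, and with it the promoter or cell type that drives the deletion and the part of the gene removed, is not given in the labels.

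Ribosomal proteins are made in the amounts that the ribosomal RNAs require, and their genes are scattered over the genome yet transcribed at similar, high rates. Their mRNAs are short and begin with a C followed by a run of pyrimidines, the 5′ terminal oligopyrimidine (TOP) motif, through which mTORC1 and the La-related protein Larp1 set how much of each mRNA is translated. Liver and fat both change protein synthesis with feeding and insulin, and this control acts largely on translation, which mRNA counts do not show. A few members are paralogs that take the place of a partner protein in particular tissues: Rpl3l in striated muscle, and Rpl10l and Rpl39l in the male germ line.

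The sequences around the transcription start are shown because the TOP motif is the best known sequence feature of these genes, and the naming rule did not use it. Each line gives 15 bases before and 15 bases from the RefSeq start of a member (GRCm38.p6), 5′ to 3′ on the gene's strand, so that the start is the 16th base. Capitals mark a C-led pyrimidine tract of at least 5 bases, read from the C nearest the start and within 10 bases of it. Pyrimidines can continue before the capitals, and a second tract further from the start is not marked. Rps27 and its paralog Rps27l come first, then a pair that was higher in fat (Rplp2, Rps12), a member that was lower in fat (Rps18), and the 3 with the smallest p in the KO liver comparison (Rps21, Rpl13a, Rps9).
Rps27, chr3:90213634-90213663, minus strand: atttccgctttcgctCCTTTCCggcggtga
Rps27l, chr9:66946071-66946100, plus strand: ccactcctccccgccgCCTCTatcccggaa
Rplp2, chr7:141447636-141447665, plus strand: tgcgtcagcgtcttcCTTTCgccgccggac
Rps12, chr10:23787195-23787224, minus strand: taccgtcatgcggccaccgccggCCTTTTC
Rps18, chr17:33955651-33955680, minus strand: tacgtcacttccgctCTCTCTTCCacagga
Rps21, chr2:180257364-180257393, plus strand: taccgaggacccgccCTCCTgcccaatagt
Rpl13a, chr7:45128731-45128760, minus strand: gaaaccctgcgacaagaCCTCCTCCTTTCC
Rps9, chr7:3704026-3704055, plus strand: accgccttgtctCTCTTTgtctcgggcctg

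Of the 83 members, 63 had a promoter entry. A tract read from exactly an annotated start, whatever the bases before it, was found for 13 of these 63 members (20.6%) and for 2.97% of 26962 other genes. Within 10 bases of a start it was found for 61.9% of the members and 34.3% of the other genes. In the 300 bases from 250 before to 50 after the start, on both strands, the ETS-type motif CCGGAAG stood in 41.3% of the members and 9.85% of the other genes. The YY1-type motif GCCATNTT stood in 20.6% against 6.93%, and TATAAA in 11.1% against 15.7%. The other strand of CCGGAAG reads CTTCCGG, which can share bases with a pyrimidine tract, and a match is only a description of the sequence. Members of both directions in the fat and liver comparison carried a tract: Rplp2, with CTTTC, was higher in fat, and Rps18, with CTCTCTTCC, was lower. Others of both directions had none within 10 bases of the start: Rpl41 was higher in fat, and Rpl10 and Rpl7l1 were lower. The lines above show only members with a tract.

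The members lie on 19 chromosomes, with 14 on chromosome 7 and 4 on the X chromosome. Their annotated transcripts had a median length of 681 bases, against 2730 in the 14112 other coding genes tested, and a median GC content of 51.6% against 50.8%. They are therefore much shorter than other genes but of nearly the same GC content. Short transcripts are those on which a trend of a library with length would act most, which is why such trends are given beside the results.

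Libraries held 12880933 to 17276907 expected counts in fat and 13836370 to 20784145 in liver. Prkce, which encodes PKCε, stood at 22.5 ± 4.10 CPM in KO fat and 36.4 ± 10.2 CPM in WT fat, and at 15.4 ± 3.57 CPM in KO liver and 19.7 ± 4.89 CPM in WT liver (CPM on TMM-scaled library sizes; SD, n = 5 each); the count covers the whole gene. The adipocyte gene Adipoq was at 1109 to 3809 CPM in fat and at most 6.16 CPM in liver, and the hepatocyte gene Alb was at 105700 CPM or more in liver, so each tissue held the defining transcripts of its label. Several libraries stood apart. KO fat 2 held urothelium transcripts. The 5 markers summed to 1748 CPM on plain library sizes, against 8.84 to 27.1 CPM in the other fat libraries. The 8 markers listed for uterus and oviduct epithelium summed to 749 CPM in KO fat 2, against 9.30 to 113 CPM in the other fat libraries. That list also summed to 151 to 269 CPM in liver, so it is not particular to these organs. WT liver 2 and WT liver 4 held skeletal muscle transcripts (8 markers, 117 and 181 CPM). These 3 libraries had more than 10 times the median of their tissue for urothelium or skeletal muscle markers. Skeletal muscle markers in fat varied more widely, from 15.95 to 747 CPM, with WT fat 2 highest, KO fat 2 at 563 CPM and WT fat 3 at 358 CPM. KO liver 5 had the steepest trend with GC content: genes fell by 0.41 on the log2 scale per 10 points of GC, where the other 19 libraries lay between -0.11 and 0.18. Results that rest on these libraries are given with and without them.

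Ribosomal protein transcripts took up a larger share of the RNA in fat than in liver. The summed members made up 2.00, 1.77, 3.05, 2.03 and 2.57% of all counts in the 5 WT fat libraries and 2.03, 2.56, 2.44, 2.05 and 1.69% in the KO fat libraries. In WT liver the shares were 1.18, 1.32, 1.14, 1.11 and 1.03%, and in KO liver 0.991, 1.07, 1.13, 1.05 and 1.02%. Every fat library lay above every liver library, while WT and KO overlapped within each tissue. The mean shares were 2.28 ± 0.519% in WT fat, 2.15 ± 0.35% in KO fat, 1.16 ± 0.108% in WT liver and 1.05 ± 0.0536% in KO liver (SD, n = 5 each). Without the 20 genes with the most counts in the denominator, the means were 2.76, 2.62, 1.58 and 1.41%. The means rose in both tissues, and those of fat stayed above those of liver. The part of very abundant transcripts of either tissue in the gap was not tested. The TMM factors, which scale libraries on the bulk of genes, ran from 1.301 to 1.461 in fat and from 0.692 to 0.761 in liver. After this scaling the median member differed between the tissues by only 0.06 on the log2 scale in WT and 0.17 in KO. As a share of all counts the members were thus higher in fat. Relative to the bulk of genes, 47 of 80 lay above 0 in WT and 62 of 80 in KO, and most were not called as higher under TMM scaling. In whole tissue, fewer cells of a type and less RNA per cell cannot be told apart.

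**Figure D1:**
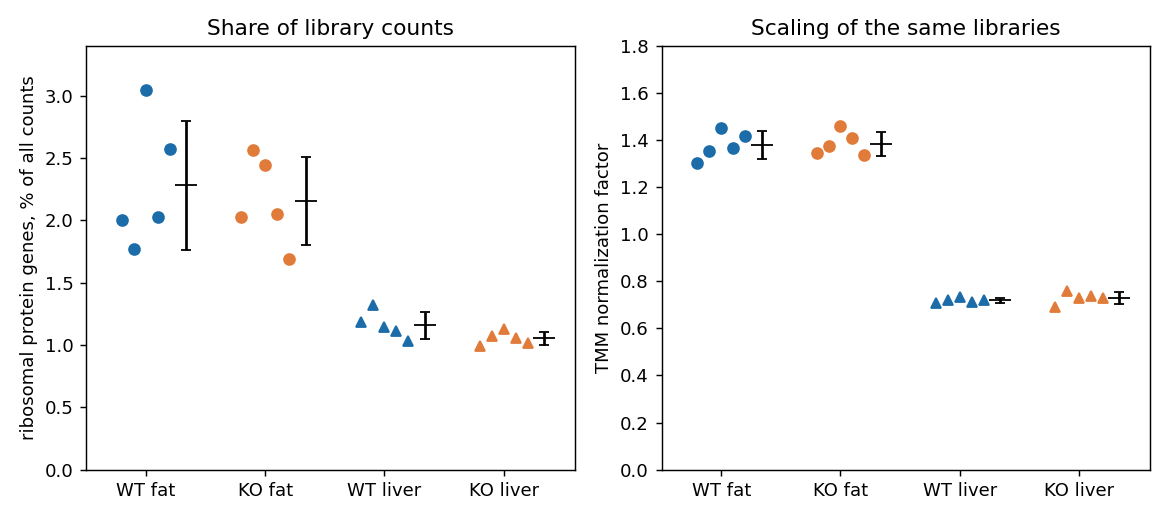
The left panel plots the summed ribosomal protein genes as a percentage of all counts in each library, and the right panel the TMM normalization factor of the same libraries; points are libraries in the order of their replicate numbers, and bars give the mean and SD of 5. All fat libraries (1.69% or more) lie above all liver libraries (1.32% or less) in share, and the TMM factors separate the tissues in the same direction.

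Per length, the order of the members was similar at the top in both tissues. In fat the highest level was that of Rplp1, an acidic protein of the stalk that recruits elongation factors, with 589 ± 91.3 CPM per kb of transcript (SD, n = 10 libraries). It was followed by Rpl10 at 542 ± 91.9, which completes the peptidyl transferase region late in assembly, and by Rps24, Rps12 and Rpl41 at 525, 501 and 462 CPM per kb. In liver the order was Rpl10 at 715 ± 67.0, Rps2 at 536 ± 83.9, Rps18 at 528 ± 75.3, Rps24 at 489 ± 86.0 and Rplp1 at 466 ± 43.2 CPM per kb. Neighbours among these 5 lay within an SD of each other, except that Rpl10 in liver stood above Rps2 by more than the SD of either. Rpl10, Rps24 and Rplp1 were among the 5 highest in both tissues.

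At the other end of the order stood most of the paralogs, though Rps27l did so in fat only (198 ± 12.6 CPM per kb in liver). Rpl10l had 0 counts in each of the 20 libraries, where 3 counts would be 0.144 to 0.233 CPM. Rpl39l had at most 5 counts in a library and Rpl3l 0 to 69. Above these, the lowest levels per length in fat were 31.0 ± 2.24 CPM per kb for Rpl7l1, 45.5 ± 8.76 for Rps20, 74.0 ± 7.23 for Rps27l and 85.5 ± 13.5 for Rpl22l1. In liver they were 39.5 ± 4.37 for Rps20, 49.9 ± 3.61 for Rpl7l1, 65.2 ± 11.9 for Rpl22l1 and 94.5 ± 14.7 for Rpl35. Among these 4 in each tissue, Rps27l and Rpl22l1 in fat differed by less than an SD, and the other neighbours by more than the SD of either. The value of Rps20 rests on an annotated transcript of 3706 bases, the longest of any member, and a shorter transcript in use would raise it. The same holds for Rpl35, whose transcript of 946 bases is long for a coding sequence of 369 bases. The 80 members tested within each tissue or genotype had mean counts of 368 or more per library in each group.

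Fat and liver of WT mice differed in a minority of members, and by little. Of the 80 members tested, 19 were called at an adjusted p under 0.05 by edgeR's quasi-likelihood test, 11 higher and 8 lower in fat, while 74.3% of all genes tested were called in this comparison (38.4% higher and 35.9% lower). In KO mice, 35 of 80 were called, 29 higher and 6 lower, where 74.4% of all genes were called (38.8% higher and 35.6% lower). In both genotypes the share of members called under TMM scaling was below that of all genes. The median member stood at 0.06 in WT and 0.17 in KO, and that of all genes at 0.04 and 0.05. Single libraries moved these medians: in WT to 0.13 without WT fat 2, 0.12 without WT liver 2, 0.10 without WT fat 4, 0.03 without WT liver 4, 0.01 without WT fat 5, 0.00 without WT liver 5 and -0.05 without WT fat 3, and in KO to 0.09 without KO fat 2, with 33 members below 0 in place of 18. The labels do not say whether fat and liver libraries of the same number came from the same mouse; with the replicate number as a block, 12 members were called in WT (8 higher, 4 lower) and 32 in KO. Of the 80 members, 16 were called in the same direction in both genotypes, 11 higher and 5 lower in fat, where 68.2% of all genes tested in both were (35.3% and 32.9%); these 16 are 84.2% of the WT calls and 45.7% of the KO calls. No member was called in opposite directions.

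The members higher in fat included the stalk protein Rplp2, which pairs with Rplp1. Rplp2 stood at 173, 149, 206, 193 and 197 CPM in WT fat and at 112, 121, 112, 111.5 and 94.5 CPM in WT liver. In KO it stood at 176, 205, 204, 195 and 158 CPM in fat and at 98.8, 101, 96.2, 91.7 and 75.4 CPM in liver. All fat libraries lay above all liver libraries of the same genotype. The ratio of fat to liver was 1.67 in WT and 2.07 in KO (log2 0.74 ± 0.11 and 1.05 ± 0.11, SE; edgeR adjusted p = 6.47e-05 and 4.04e-06). Its partners moved less: Rplp1 had a ratio of 1.25 in WT and 1.31 in KO and was called in both, and Rplp0, which anchors the stalk, had 1.11 in WT, not called, and 1.31 in KO, called. The stalk is where the ribosome carries proteins in several copies, and whether the 3 genes differ in their ratios was not tested.

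Rps19, a small-subunit protein needed to mature 18S ribosomal RNA and the gene most often mutated in Diamond-Blackfan anaemia, had the largest rise in WT. It stood at 216, 218.5, 311, 247 and 268 CPM in WT fat and at 143, 163, 142, 151.5 and 126.5 CPM in WT liver, and at 254, 290, 262, 235 and 200.5 CPM in KO fat and 117, 124, 142, 131 and 114.5 CPM in KO liver. The ranges did not overlap in either genotype. The log2 difference was 0.80 ± 0.12 in WT and 1.02 ± 0.11 in KO (SE; edgeR adjusted p = 8.88e-05 and 7.46e-06). Rps12, a small-subunit protein, stood at 191 to 329 CPM in WT fat and 136 to 174 CPM in WT liver, again with no overlap, and its log2 difference was 0.79 ± 0.14 in WT and 0.94 ± 0.11 in KO (edgeR adjusted p = 0.000364 and 1.57e-05). In all, 4 of 80 members in WT lay wholly above in fat and 2 wholly below, where the ranges of 62.4% of all genes were separate (32.2% above and 30.3% below). In KO, 14 members lay wholly above and 4 wholly below, where 63.1% of all genes were separate.

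Smaller rises were shared by both genotypes. Rpl41, the shortest protein of the ribosome, rose by 0.63 in WT and 0.62 in KO on the log2 scale, Rpl23a, at the exit of the peptide tunnel, by 0.56 and 0.54, and Rpl39, which lines that tunnel, by 0.45 and 0.61. Rpl29 and Rps15a rose by 0.25 and 0.36 in WT and by 0.38 and 0.40 in KO. All of these were called by edgeR in both genotypes. Counts of Rpl23a were not whole in 13 of 20 libraries, so some of its reads had been shared out between genes by the authors' counting. In KO alone, edgeR also called 18 members as higher, among them Rps21, Rpl35, Rpl13 and Rpl38, and Rpl7a as lower (-0.31, and -0.30 in WT); the difference between genotypes was tested as an interaction, and 0 members were called there.

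**Figure D2:**
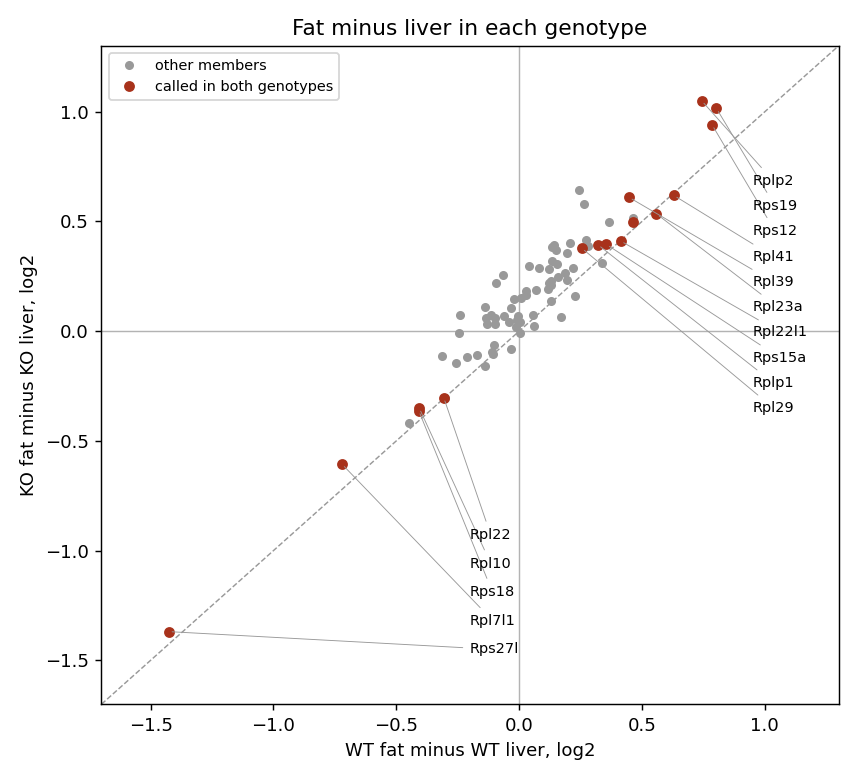
Each point is 1 of the 80 tested members, with its log2 difference of fat minus liver in WT on the horizontal axis and in KO on the vertical axis; red points were called by edgeR in both genotypes, names are given for most of them, and the dashed line marks equal differences. Rps27l stands far below the others in both genotypes and Rplp2, Rps19 and Rps12 lie at the upper end, while most points are near 0.

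The largest difference of any member was that of Rps27l, a paralog of Rps27 known as a target of p53. It stood at 37.7, 37.7, 43.8, 41.3 and 42.0 CPM in WT fat and at 110, 113, 110, 108 and 107 CPM in WT liver. In KO it stood at 37.8, 43.2, 48.3, 44.5 and 49.3 CPM in fat and 114, 106, 122, 121 and 127 CPM in liver. The highest fat library was below 50 CPM and the lowest liver library above 105 CPM. The log2 difference was -1.43 ± 0.07 in WT and -1.37 ± 0.09 in KO (SE; edgeR adjusted p = 5.44e-09 and 1.05e-07), which is a fat to liver ratio of 0.372 and 0.387. Rpl7l1, a paralog of Rpl7, was also lower in fat, at 37.9 to 45.9 CPM in WT fat and 63.6 to 74.0 CPM in WT liver, with log2 differences of -0.72 ± 0.08 in WT and -0.61 ± 0.07 in KO (edgeR adjusted p = 5.33e-06 and 1.19e-05). These were the only members that lay wholly below liver in WT fat.

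Among members that are not paralogs, Rpl10, Rps18 and Rpl22 were called as lower in fat in both genotypes, though not firmly. Over the 22 alternatives run, Rpl10 lost its call in 9 in WT. In KO it lost its call in 2 and changed sign in 2 others, and it stayed called as lower in 18. Rps18 lost its call in 9 in WT and 2 in KO, and Rpl22 in 4 in WT and 12 in KO. Rpl10 stood at 358.5 to 588.5 CPM in WT fat and 541 to 674 CPM in WT liver, with overlap, and its log2 difference was -0.41 ± 0.16 in WT and -0.35 ± 0.13 in KO (SE; edgeR adjusted p = 0.0322 and 0.026). Rps18, in the head of the small subunit, had -0.41 in WT and -0.36 in KO, and Rpl22 -0.31 and -0.30. Rps2, at the mRNA entry of the small subunit, was called in WT at -0.45 and not in KO at -0.42. Without KO liver 5, where Rps2 was at 344.5 CPM against 574 to 647 CPM in the other KO liver libraries, the KO difference was -0.54 and was called. Rps27 was called in WT at -0.31 and not in KO at -0.11, and Rpl36 in WT only.

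These directions depend on the scale for the members in the middle of the range. With upper quartile scaling, which raised the median of all genes by 0.29 in WT and 0.27 in KO, the members called were 38 higher and 2 lower in WT and 60 higher and 2 lower in KO. With the trends in GC and transcript length taken out of each library, a step that raised the median of all genes by 0.08 and 0.05, they were 35 higher and 7 lower in WT and 48 higher and 4 lower in KO. By limma-voom they were 10 higher and 12 lower in WT, with a median of -0.03. With no filter on low counts 12 were higher and 4 lower in WT. Without the 3 libraries named above for transcripts of other tissues, 11 were called in WT (8 higher, 3 lower) and 24 in KO (17 higher, 7 lower). The share of all genes called is not given under these alternatives, so the counts of members cannot be set against it. Under all 22 alternatives run, Rps27l stayed called as lower and Rplp2, Rps19 and Rps12 as higher in both genotypes.

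Set against its partner, each expressed paralog showed a different balance in the tissues. Rps27l made up 18.2 ± 1.55% of the summed level per length of Rps27l and Rps27 in WT fat and 19.3 ± 3.495% in KO fat, but 32.4 ± 2.07% in WT liver and 35.9 ± 2.20% in KO liver (SD, n = 5 each). The fat libraries ran from 15.1 to 24.5% and the liver libraries from 29.9 to 38.5%, with no overlap. Rps27 itself was at 96.5 to 137 CPM in WT fat and 121 to 152 CPM in WT liver, with overlap. Rpl7l1 made up 9.17 ± 0.762% of its pair in WT fat and 13.1 ± 0.849% in WT liver, and 9.70 ± 1.202% against 12.6 ± 0.348% in KO.

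Rpl22l1 went the other way. Rpl22 protein binds the mRNA of Rpl22l1 and holds its level down in mouse tissues, as background. Rpl22l1 stood at 37.9, 38.1, 50.8, 44.9 and 39.8 CPM in WT fat and 27.7, 28.3, 37.1, 38.2 and 28.6 CPM in WT liver, and Rpl22 at 82.4 to 104 CPM in WT fat and 99.9 to 126 CPM in WT liver. The ranges of both genes overlapped slightly. Rpl22l1 was higher in fat by 0.41 in WT and 0.41 in KO, and Rpl22 lower by the amounts given above, all called by edgeR. The call of Rpl22l1 in KO was lost in 6 of 22 alternatives, and kept in all 22 in WT. The paralog made up 29.5 ± 1.45% of the pair in WT fat and 20.4 ± 3.22% in WT liver, and 33.3 ± 3.28% and 23.3 ± 4.30% in KO.

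The remaining paralogs were near 0 in most libraries. Rpl3l was at 2.96 CPM in WT fat 2, 2.14 CPM in KO fat 2, 2.45 CPM in WT liver 4 and 1.196 CPM in WT liver 2, and at 0.61 CPM or less in the other 16 libraries. The muscle actin gene Acta1 was at 125, 167, 107 and 58.1 CPM in those 4 libraries and at 79.4 CPM or less elsewhere, though WT fat 3, with that 79.4 CPM of Acta1, held more of it than WT liver 2 and less Rpl3l (0.61 CPM). Whether Rpl3l came from muscle was not tested. Rpl3l, Rpl39l and Rpl10l had too few counts for a test within a tissue.

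**Figure D3:**
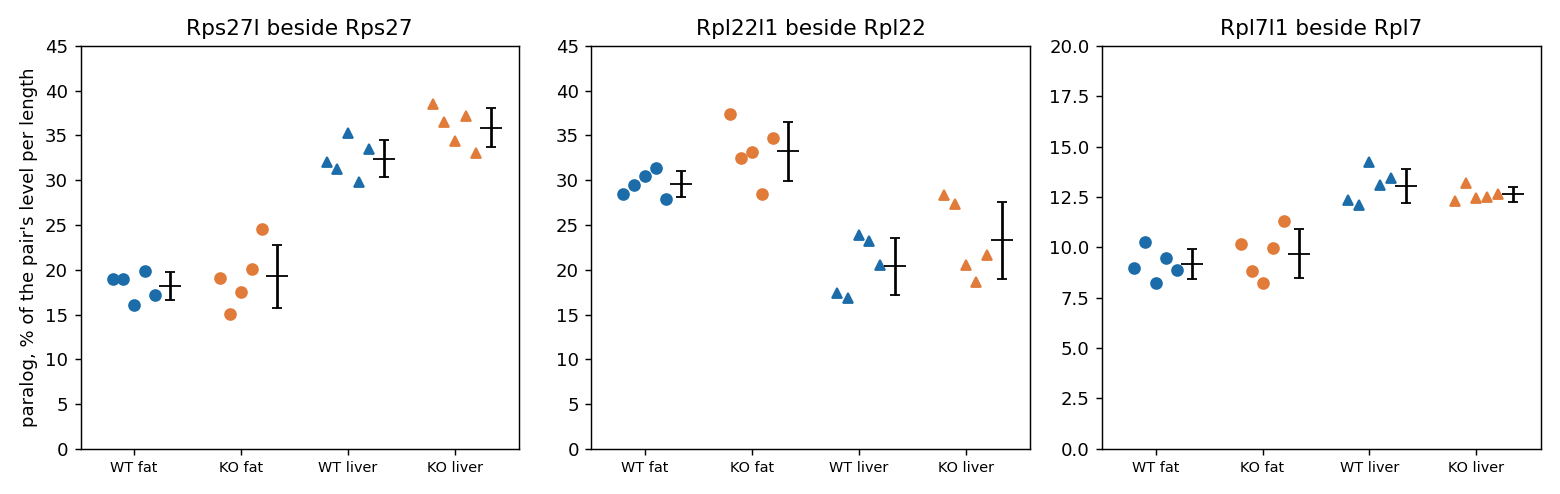
Each panel gives a paralog as a percentage of the summed level per length of the paralog and its partner, for each library (points) with the mean and SD of 5 (bars). Rps27l and Rpl7l1 take a larger part of their pair in liver (up to 38.5% for Rps27l) and Rpl22l1 takes a larger part in fat (up to 37.4%).

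In fat, KO and WT mice did not differ in any member past the test. Of 80 members tested, 0 were called by edgeR, as for all genes (0%); 0 reached an unadjusted p under 0.05, where 7.13% of all genes did, and DESeq2 and limma-voom also called 0. The differences were small, from -0.29 to 0.16 on the log2 scale, with 61 of 80 members below 0 where 49.9% of all genes were. The median was -0.08 and that of all genes 0.00. This median turned to 0.01 without WT fat 3, was -0.02 without KO fat 5, -0.04 without WT fat 5, -0.05 without KO fat 4 and -0.15 without KO fat 2 or WT fat 2, and was -0.00 with GC and length trends taken out (40 of 80 below 0). No member had separate ranges, where 1.26% of all genes did. Summed hepatocyte markers were at 1470 to 2215 CPM in KO fat and 2403 to 5037 CPM in WT fat. Of these 8 markers, 5 were lower in KO. For Alb the groups overlapped, at 23.8 to 300 CPM in KO fat and 9.45 to 337 CPM in WT fat. Most of the hepatocyte sum in fat thus came from genes of the list other than Alb. The sums are on plain library sizes and the Alb values on TMM-scaled sizes. Summed adipocyte markers were at 18510 to 26650 CPM in KO fat and 23190 to 32740 CPM in WT fat, with 6 of 7 lower in KO. All 6 fibroblast, 6 proliferation, 6 erythroid and 8 skeletal muscle markers were lower in KO fat too. So were 5 of 7 macrophage, 5 of 6 mast cell and 6 of 8 lymphocyte markers. The sums of these 7 lists overlapped between KO and WT. Of the uterus and oviduct markers 4 of 8 were lower, and of the urothelium markers 0 of 5. The part of these lists in the result was not tested.

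The members with the smallest p in fat show how far the libraries spread. Rps24 stood at 263, 186, 375, 223 and 304 CPM in WT fat and at 197, 245.5, 263.5, 218 and 185 CPM in KO fat, a KO to WT ratio of 0.8205 with a 95% interval of 0.621 to 1.083. Rpl21 stood at 200 to 322 CPM in WT and 180 to 259 CPM in KO (ratio 0.835, 0.667 to 1.045). Rpl23a, Rpl7a and Rpl3 had ratios of 0.844, 0.8715 and 0.849. Rps27l had a ratio of 1.10 (0.966 to 1.25), and the groups overlapped in all 6. The smallest adjusted p of any member was 0.704 by edgeR.

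In liver, the members lay slightly lower in KO, nearly all of them, but none passed the test. Of 80 members, 77 had a KO to WT difference below 0, where 50% of all genes had, and the median was -0.18 with 0.00 for all genes. EdgeR called 0 members, where it called 0.00752% of all genes; DESeq2 and limma-voom also called 0. An unadjusted p under 0.05 was reached by 22 members, each of them lower in KO, where 13.1% of all genes reached it in either direction and 6.56% as lower. With DESeq2 28 members reached it and with limma-voom 23. Members moved together from library to library, so these counts are not of independent genes. The count was 3 without WT liver 2 and WT liver 4, 12 without WT liver 2 alone, 14 without KO liver 1, 39 without WT liver 5 and 5 in a fit of all 20 libraries. The share of all genes is not given for these fits, nor for DESeq2 and limma-voom. Whether the change in count is particular to the members was not tested.

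Rps21, a small protein of the small subunit, had the smallest p. It stood at 88.4, 97.2, 78.6, 83.2 and 68.8 CPM in WT liver and at 59.8, 68.65, 71.4, 67.0 and 62.9 CPM in KO liver. The WT libraries lay above all KO libraries apart from WT liver 5. KO stood at a ratio of 0.7875 to WT (95% interval 0.681 to 0.9105; edgeR adjusted p = 0.231). Rpl13a, whose introns carry small nucleolar RNAs, stood at 329, 365, 313, 317 and 285 CPM in WT and at 240.5, 267, 298, 255 and 225 CPM in KO, with a ratio of 0.7935 (0.685 to 0.92; edgeR adjusted p = 0.235). Rps9 stood at 302, 343, 277, 282 and 245 CPM in WT and at 230.5, 241, 259, 219 and 184.5 CPM in KO, with a ratio of 0.778 (0.66 to 0.917; edgeR adjusted p = 0.235). In each of these 3 members, WT liver 5 was the only WT library within the range of KO.

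Rps10, Rps6, the phosphorylated target of S6 kinases, and Rpl35, which sits at the tunnel exit, had ratios of 0.819, 0.842 and 0.821. The stalk proteins lay lower too: Rplp0 stood at 403 to 483 CPM in WT and 328 to 395 CPM in KO, with no overlap and a ratio of 0.845 (0.738 to 0.9665), and Rplp2 had a ratio of 0.834. Rpl18 also had separate ranges, at 141 to 167 CPM in WT and 96.75 to 140 CPM in KO, though its counts were not whole in any library. These 2 of 80 members lay wholly below WT, where 1.07% of all genes did and 2.84% had separate ranges in either direction. Rpl22l1, Rps2 and Rps27l were the members above 0; Rps27l stood at 0.10, and at -0.02 with GC and length trends taken out.

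The median of the members in KO liver stayed below 0 under each alternative run. It was -0.18 without KO liver 5, -0.13 with GC and length trends taken out (73 of 80 below 0), -0.12 without the libraries with skeletal muscle transcripts (74 of 80) and -0.12 to -0.22 with each library left out in turn. Large-subunit and small-subunit members had medians of -0.18 and -0.16. Several lists of cell type markers were also lower in KO liver, though not all. The 6 proliferation markers were all lower in KO and summed to 8.34 to 10.2 CPM in KO liver and 14.2 to 41.0 CPM in WT liver, and no marker was at 0 over a group. The 7 macrophage markers were all lower and summed to 211 to 298 CPM in KO against 267 to 516 CPM in WT. Of the 8 hepatocyte markers, 7 were lower in KO, with sums of 113100 to 131700 CPM in KO and 131900 to 156400 CPM in WT. All 6 erythroid markers were lower (191.5 to 506 CPM against 326 to 1006 CPM), and the 8 skeletal muscle markers were too (0.599 to 19.6 CPM against 0.861 to 181 CPM). Other lists did not fall as a whole: 3 of 8 lymphocyte, 2 of 6 mast cell and 4 of 8 uterus and oviduct markers were lower in KO. The part of these cell type markers in the result was not tested.

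**Figure D4:**
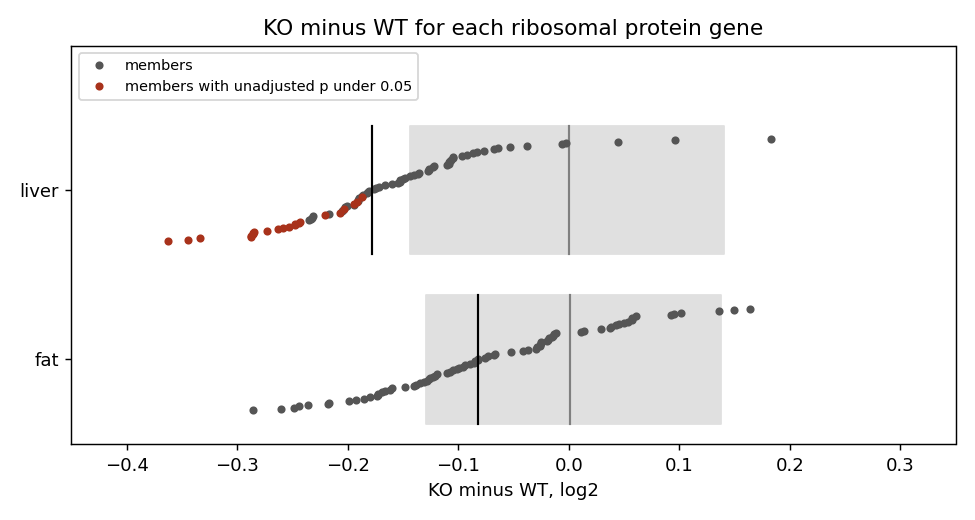
Each point is 1 of the 80 tested members at its log2 difference of KO minus WT, sorted from lowest to highest in fat (lower row) and liver (upper row); black lines mark the members' median, grey lines the median of all genes, and grey bands the middle 50% of all genes. In liver the points lie left of 0 apart from 3, around a median of -0.18, and red points are the 22 members with an unadjusted p under 0.05; in fat they lie around -0.08.

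No member passed the test for a KO effect that differed between the tissues, which does not show that the effects were equal. Of 81 members tested in the interaction of genotype and tissue, edgeR called 0 (all genes 0%), and 0 reached an unadjusted p under 0.05, where 5.36% of all genes did; DESeq2 and limma-voom called 0, with 1 member each at an unadjusted p under 0.05. The smallest p belonged to Rplp2, with a difference of 0.29 (95% interval -0.03 to 0.60), followed by Rps21 at 0.38 (-0.04 to 0.79). The median was 0.09, and -0.03 without the 3 libraries named above. It moved with single libraries, to 0.0088 without WT fat 2, 0.025 without KO fat 2, 0.038 without WT liver 2, 0.054 without WT fat 4, 0.056 without KO fat 3, 0.14 without KO fat 5 and 0.17 without WT fat 3. The additional member in this fit was Rpl3l, with mean counts of 2.4 to 17.4 per group.

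The members rose and fell together from library to library, also within a group. In fat, the SD of a member's log2 CPM within groups had a median of 0.25, and of 0.09 after the mean of all members in the library had been subtracted. In liver the values were 0.15 and 0.09. In WT fat 3, the mean of the members was 0.39 above that of the 10 fat libraries and all 80 lay above it. In KO fat 2 it was 0.23 above, again with all 80. In WT fat 2 it was 0.28 below with 0 members above, and in KO fat 5 0.30 below with 2 above. These shifts are larger than the KO to WT difference in fat. In liver, WT liver 2 was highest at 0.27, with 77 above, and the KO libraries lay between -0.11 and 0.03. WT liver 5 lay within this KO range at -0.08, with 7 above. WT liver 3 and WT liver 4, at 0.04 and 0.03, were close to KO liver 3 at 0.03.

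The fat libraries with high members also differed in other measures, not all in the same direction. In WT fat 3, the summed macrophage markers were at 2062 CPM against 412 to 1355 CPM in the other fat libraries, the fibroblast markers at 10226 CPM against 3258 to 6497 CPM, the proliferation markers at 346 CPM against 41.3 to 241 CPM and the erythroid markers at 3150 CPM against 370 to 1622 CPM. KO fat 2, where all 80 members were high too, had the lowest macrophage sum of the fat libraries, at 412 CPM, with 3787 CPM for fibroblast, 71.4 CPM for proliferation and 490 CPM for erythroid markers. KO fat 2 was also the library with urothelium transcripts. WT fat 5 (mean 0.19 above, 78 members above) and KO fat 3 (0.10, 66 above) went with WT fat 3 in several sums. Their fibroblast markers were at 6484 and 6497 CPM, and their proliferation markers at 133 and 241 CPM. Macrophage markers were at 966 and 1355 CPM there, and erythroid markers at 1622 and 1287 CPM. KO fat 4, with 6 members above the mean, had macrophage markers at 1219 CPM and proliferation markers at 168 CPM. With GC and length trends taken out, the mean of the members in WT fat 3 was 0.30, in KO fat 2 0.20, in WT fat 2 -0.21 and in KO fat 5 -0.25. In WT liver 2 it went from 0.27 to 0.11. The part of the cell type markers in these shifts was not tested.

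KO liver 5 was the library in which members parted by their base composition. Of the 40 members with more GC, 4 lay above their mean over liver, and of the 40 with less GC, 24 did. Their medians were -0.22 and 0.06, and Pearson's r with GC content across the 80 members was -0.71; in the other 19 libraries r lay between -0.37 and 0.52. The points of such an r share 1 library and are not independent. Rps2 (56.5% GC) and Rplp2 (55.6% GC) had their lowest liver level in KO liver 5, at 344.5 and 75.4 CPM, whereas Rps27l (43.1% GC) had its highest, at 127 CPM.

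**Figure D5:**
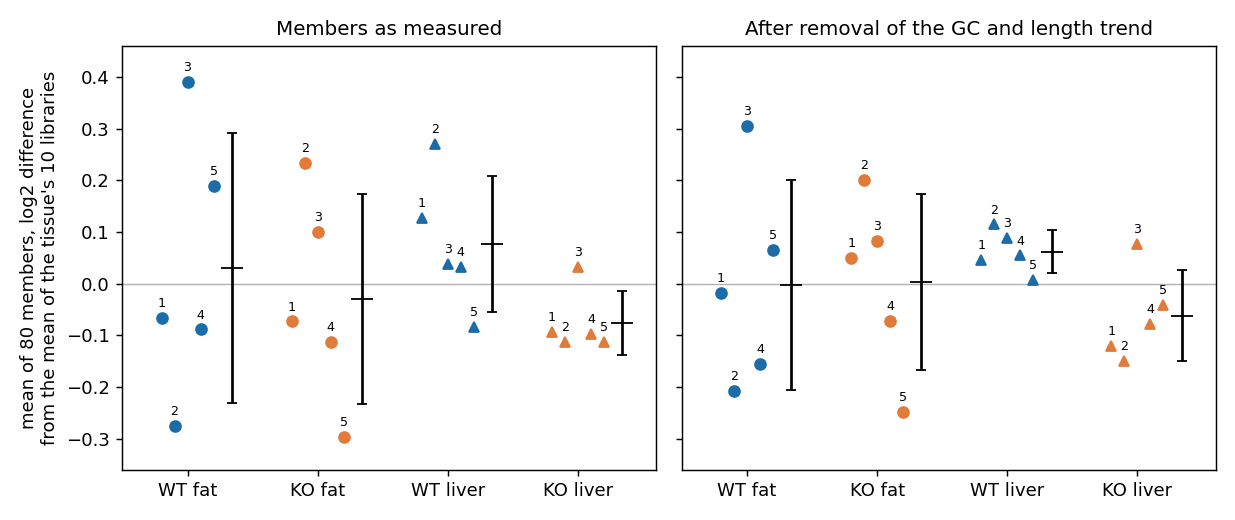
Each point is 1 library, numbered by replicate, at the mean of 80 members as a log2 difference from the mean of the 10 libraries of its tissue, as measured (left) and with the trends in GC and transcript length taken out (right); bars give the mean and SD of 5. WT fat 3 stands highest at 0.39 before and 0.30 after, and fat libraries spread more widely than liver libraries.

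Single members departed from this shared movement. In fat, Rpl12, Rps26 and Rps27a, which is made as a fusion with ubiquitin, had the largest SD within groups, at 0.41, 0.37 and 0.37, and 0.18, 0.16 and 0.15 after the library mean was subtracted. In liver the largest were Rps2, Rpl22l1 and Rps24, at 0.27, 0.26 and 0.24. For Rps2 and Rpl22l1 the SD did not shrink with the library mean subtracted (0.29 and 0.31). Rpl22l1 stood at 41.6, 42.6, 31.7, 26.8 and 39.7 CPM in KO liver.

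Among genes outside the rule, those most like the mean of the members over the 10 fat libraries were Eef1b2, an elongation factor subunit, at Pearson's r = 0.996, Fau, which encodes the small-subunit protein Rps30 as a ubiquitin-like fusion, at 0.972, the ribosome-bound scaffold Rack1 at 0.965, Zfp511 at 0.951 and Sf3b4 at 0.940, out of 13708 genes compared. Over the 10 liver libraries they were Eif3k at 0.957, Trappc3 at 0.942, Eef1a1 at 0.942, Eef1g at 0.940 and Nop53 at 0.933, out of 12844. These libraries share depth and composition with the members, and the values are a description.

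Other parts of the translation machinery are described by their counts, to be read against the 38.4% of all genes called as higher and the 35.9% called as lower in WT fat. Of 78 mitochondrial ribosomal proteins tested, a separate family, 9 were called as higher and 44 as lower in WT, with a median of -0.31, and 11 and 40 in KO. Mrpl15, of the large mitochondrial subunit, was at 22.2 ± 0.774 CPM in WT fat and 76.7 ± 9.145 CPM in WT liver, and Mrps6 was among the 9 that were higher, at 68.35 ± 11.8 and 9.45 ± 0.8855 CPM (SD, n = 5 each). Of 39 ribosome assembly factors, 2 were called as higher and 16 as lower in WT fat (median -0.23), among them Eif6, which keeps the subunits apart, at 31.5 ± 3.635 against 52.8 ± 4.645 CPM. Of 54 nuclear respiratory chain subunits, whose transcripts are also short and abundant, 5 were higher and 30 lower, with a median of -0.30. The cytosolic members, with 11 higher and 8 lower of 80, had a median of 0.06.

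Translation factors with TOP mRNAs split between the tissues, with 5 called as higher and 6 as lower of 19 in WT fat. Eef2, the translocation factor, was at 1102 ± 115 CPM in WT fat and 2238 ± 169 CPM in WT liver, and Nap1l1, a histone chaperone counted with this list, at 204 ± 21.3 and 80.25 ± 9.66 CPM. Of 28 genes of mTORC1 and TOP mRNA control, 10 were called as higher and 11 as lower in WT fat. The 4E-binding proteins, translational repressors that mTORC1 inactivates, went in opposite directions: Eif4ebp1 was at 158 ± 23.3 CPM in WT fat and 37.5 ± 1.55 CPM in WT liver, and Eif4ebp2 at 34.02 ± 5.17 and 126 ± 11.85 CPM. Of 14 genes of RNA polymerase I, which transcribes the large ribosomal RNA precursor, 3 were higher and 5 lower.

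In KO against WT liver, edgeR called 0 genes in each of these lists. The snoRNA host genes, which like the members carry TOP motifs, had a median of -0.28 with 7 of 7 below 0; Zfas1 was at 10.3 ± 2.18 CPM in KO against 15.3 ± 1.36 CPM in WT, and Gas5 at 48.1 ± 7.43 against 58.0 ± 6.76 CPM, neither called. The TOP translation factors had a median of -0.14, with 17 of 19 below 0, and 4 ribosome parts outside the rule, such as Fau and Rack1, had a median of -0.18, with 4 of 4 below 0. Assembly factors stood at -0.09 with 30 of 39 below 0, mitochondrial ribosomal proteins at -0.03 and respiratory chain subunits at -0.01. The median of all genes was 0.00. In fat, the same lists had medians of -0.20, -0.10, -0.06, -0.11, -0.05 and -0.04, with 0 genes called.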

How the data were processed

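The deposited values are RSEM expected counts per gene, not normalized, as the authors made them; build GRCm38, the counter RSEM 1.2.12, the aligner STAR 2.4.0d, the trimmer Trim Galore 0.2.8 and DESeq2 are named in the submitters' processing notes, and libraries came from a stranded mRNA kit, per the labels' protocols. No source used here gives the annotation release or the strand setting. Counts were rounded, filtered with filterByExpr (minimum count 10, total 15), scaled by TMM and tested with edgeR 4.0.16 (quasi-likelihood, robust; limma 3.58.1, R 4.3.3), with Benjamini-Hochberg adjustment over all genes and calls at 0.05. Tests used the 10 libraries of each comparison, and the interaction all 20. Printed CPM share 1 scale over 20 libraries, with a prior count of 2 for log2.

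Lengths and GC content came from GENCODE M21, using the shortest coding transcript with at least 90% of the longest coding sequence. Trends were splines (4 degrees of freedom) fitted on genes that are not members. Starts came from RefSeq. The members, lists and tests were chosen with earlier results of these data known. Named genes were all members called in KO against WT or, with fewer than 6, the 6 with the smallest p in each tissue; the 6 largest rises and falls between WT tissues; paralogs with their partners; the 5 highest and lowest levels per length; the 3 largest SDs; the 5 most alike genes; and list genes with the smallest p. Others (such as Rplp0, Rpl18 and Rps15a) were chosen after their values were seen. Alternatives were RLE and upper quartile scaling, TMM without the members, 2 other filters, DESeq2 1.42.0, limma-voom, trend removal, the replicate number as a block, all 20 libraries in 1 fit, and libraries left out. The labels do not tie libraries to mice beyond 5 per group, and p-values measure the spread between libraries. Between 4.82 and 8.43% of the members' values in a library were not whole. Steps were tested on simulated data. Values of a few genes are not reported here.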

Additional observations from a re-analysis of the deposited data

Results flagged for a closer look

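Single libraries far from the other 4 of their group were looked for in 30 members and in the summed share, over 124 groups of values; 4 stood apart by Dixon's criterion at 95%, or 3.23%, where chance gives about 1 in 20. Rpl3l stood at 2.14 CPM in KO fat 2 and at 2.96 CPM in WT fat 2, against 0.61 CPM or less in the other fat libraries; both libraries also held the most Acta1 among fat libraries (167 and 125 CPM). Rps2 stood at 344.5 CPM in KO liver 5, against 574 CPM or more in the other KO liver libraries; this library had the steepest trend with GC content. Rps12 stood at 174.3 CPM in WT liver 2, against 136 to 145 CPM in the other WT liver libraries; the mean of all members was highest there too, at 0.27.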

How the results depend on the processing

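With upper quartile scaling, 40 members were called between the WT tissues and 62 between the KO tissues, with medians of 0.35 and 0.45. Here and below, the share of all genes called under an alternative is not given. Taking out GC and length trends gave 42 calls in WT, and 11 members were called without KO fat 2, WT liver 2 and WT liver 4. Whether equal replicate numbers mark the same mouse is not stated in the labels, and no pairing showed in every pair: same-numbered fat and liver libraries correlated at -0.022 to 0.17 in WT and -0.0039 to 0.056 in KO, and KO and WT libraries at -0.26 to 0.39 in fat and -0.20 to 0.22 in liver. With the replicate number as a block, 12 members were called in WT, and 36 with the block and trends taken out together; the cause was not tested. Without the 20 genes with the most counts, the share was 1.41% in KO liver, 1.58% in WT liver and 2.62% in KO fat, and without mitochondrially encoded genes it was 1.11% in KO liver; these follow from the smaller denominators. No other total of called members moved by over 1.5 times and no other share or median by more than the spread between replicates, and calls of members between KO and WT stayed at 0 under each alternative run. By direction, calls in WT went from 11 higher and 8 lower to 17 and 4 without WT fat 2, 10 and 4 without WT liver 1, 11 and 4 without WT liver 2 and 8 and 5 without WT liver 4, and calls in KO from 29 and 6 to 29 and 3 without KO liver 3 and 17 and 7 without KO fat 2.

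Members with a small difference between tissues changed sign, and the cause was not tested. With trends taken out, Rpl10 in KO was at 0.036 (0.028 with the replicate block), Rpl7 at 0.57 in WT and 0.62 in KO (0.56 and 0.61 with the block), and Rps27l in KO against WT liver at -0.021 (-0.024 with the block). With upper quartile scaling Rps27 in KO was at 0.16 and Rpl7 at 0.15 in WT and 0.11 in KO. Rpl3 was at -0.025 in WT by limma-voom. In KO it was at -0.0032 with RLE scaling, -0.0032 by DESeq2, -0.054 by limma-voom, -0.011 in a fit of all 20 libraries and -0.086 without the doubtful libraries. With each library left out in turn it ran from -0.067 to 0.14 in WT and from -0.086 to 0.075 in KO. The 80 members tested within a tissue or genotype had at least 368 counts on average in each group, and replicates of a group differed by at least 14.7 times the counting noise over all genes (chi-square per degree of freedom).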
